A study of Mus musculus with 4 samples.

Results

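S1-like cells of the proximal tubule were picked out of dissociated renal cortex by a few transcripts of the first proximal segment. Of 1916 retained cells in 4 libraries, 61 met the rule. The rule summed the UMIs (unique molecular identifiers, 1 for each captured mRNA molecule) of Slc5a12, Slc5a2 and Spp2 in each cell. A member had at least 2 such UMIs, more than its UMIs of the S2 genes Slc22a6 and Slc22a8, and more than its UMIs of the S3 genes Slc7a13, Slco1a1 and Lpl. It also had at most 1 UMI of 7 genes of the distal nephron (Umod, Slc12a1, Slc12a3, Trpm6, S100g, Atp6v1g3 and Atp6v0d2). Members were thus chosen by the measured UMIs of these 15 genes, whose levels are given only as a description.

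The libraries came from 2 Akita mice (C57BL/6-Ins2Akita/J, aged 116 and 119 days) and 2 wild-type counterparts (aged 45 and 51 days), 1 cortex preparation each. Akita is a germline mutation of Ins2 that harms the insulin-producing beta cells and makes its carriers diabetic, and it is present in all cells of the animal, the tubule included. By these labelled ages the younger animals were all wild-type, so genotype and age cannot be told apart. The housing time that the labels also give is longer than any of these ages, so the ages themselves are uncertain. Cells were captured by Drop-seq, a droplet method that tags the mRNA of each cell with a barcode of 12 bases and each molecule with a UMI of 8 bases. The labels gave no sex.

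The proximal tubule takes back most of the filtered glucose, amino acids, phosphate, bicarbonate and protein. Its first segment, S1, starts at the glomerulus in the convoluted part of the tubule. S2 follows, and S3 is the straight part that runs towards the medulla. S1 is known for SGLT2 (Slc5a2), the high-capacity glucose transporter of the brush border and the target of a class of diabetes drugs. Slc5a12 carries lactate and other monocarboxylates with sodium, and Spp2 encodes a secreted phosphoprotein. S2 is known for the organic anion transporters Slc22a6 and Slc22a8, which take up drugs and toxins from blood. In rodents, many proximal transcripts, Kap among them, respond to androgens.

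In the deposited files, 884 barcodes occurred both under Akita replicate 2 and under Wild-type replicate 1, whereas no other pair of files overlapped by more than 4. Among the 61 members, 31 carried such a barcode, 16 in Akita replicate 2 and 15 in Wild-type replicate 1. These 31 were 21 distinct barcodes, of which 10 were S1-like in both files and 11 in only 1 of them. For the 11, the same barcode in the other file was S2-like in 4 cases, in no proximal segment class in 6 and not retained in 1. The distinct member barcodes therefore numbered 51. For comparisons of segments, a shared barcode was assigned to whichever file held the larger relative amount of its UMIs, leaving 45 members (9 and 7 in the Akita libraries, 17 and 12 in the wild-type libraries). Which library such a cell came from is not known, and this assignment is an assumption on which the segment values of Akita replicate 2 and Wild-type replicate 1 depend. Leaving shared barcodes out altogether left 30 members (9 and 2 in Akita, 7 and 12 in wild type).

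Barcodes within 1 file could also be near copies of each other, and 4 members, all in Wild-type replicate 1, differed by 1 base from another retained barcode. Their sequences are shown because they bear on how many cells the members are. They are written 5′ to 3′, with the base that differs, at position 1 counted from the 5′ end, in capitals.
First member: Agggcataaaac
Its neighbour, also a member: Ggggcataaaac
Another member: Gcacaggctaat
Its neighbour, S2-like: Acacaggctaat
Last member: Gaggttctacgc
Its neighbour, in no segment class: Aaggttctacgc
The first pair held 1890 and 827 UMIs, of which 9 and 5 came from the S1 genes. The next member held 851 UMIs, against 2549 for its neighbour. The last member held 771, against 3041. In each pair a member was thus the barcode with fewer UMIs. The barcodes of the first member and of the S2-like neighbour were also found in Akita replicate 2, where both were S1-like. Whether these barcodes are separate cells was not tested, so the 51 distinct barcodes could come from fewer cells.

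Spp2 carried most of the rule. It gave 125 UMIs in 52 of the 61 members, Slc5a12 gave 50 UMIs in 28 members, and Slc5a2 gave 10 UMIs in 10 members with never more than 1 in a cell. Spp2 alone qualified 26 members, Slc5a12 with Spp2 18, Slc5a12 alone 7, Slc5a2 with Spp2 7, Slc5a12 with Slc5a2 2, and 1 member had all 3. So most members were chosen with no UMI of the S1 glucose transporter. Levels are given as CPM, counts per 1e6 UMIs of the members summed in each library. Slc5a12 reached 1617 and 483 CPM in the Akita libraries and 582 and 702 CPM in the wild-type libraries. Spp2 reached 1046 and 2091 CPM in Akita, against 1940 and 1949 CPM in wild type. Akita replicate 1 was the 1 library whose members had more Slc5a12 than Spp2. Slc5a2 stayed at or below 215 CPM in every library.

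**Figure D1:**
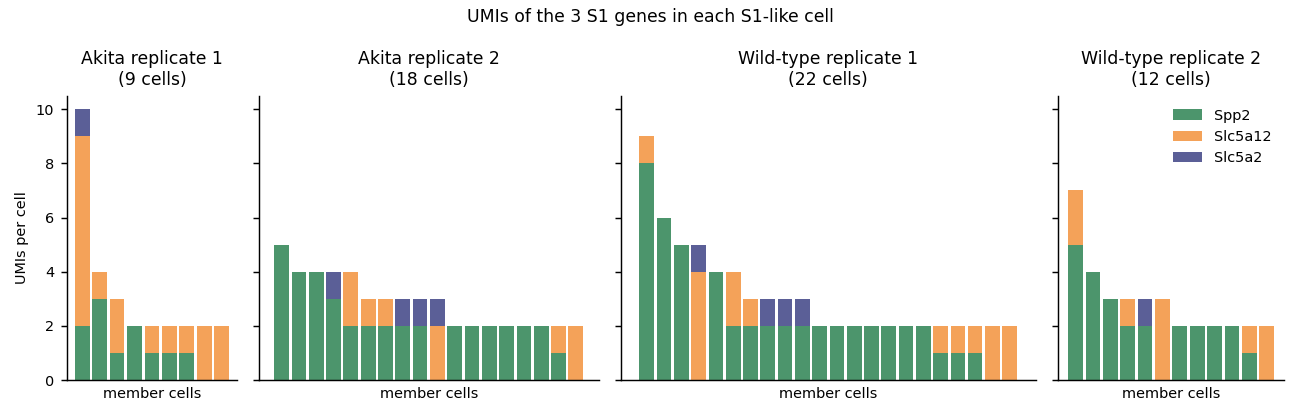
UMIs of Spp2, Slc5a12 and Slc5a2 in each of the 61 S1-like cells (bars, stacked), by library, with shared barcodes shown in each file that holds them. The bar of 10 UMIs in Akita replicate 1 is the highest and is mostly Slc5a12; the other 60 have at most 9, and 32 members have exactly 2.

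Many members lay close to the edge of the rule. Exactly 2 S1 UMIs were found in 32 members, 3 in 14 and 4 or more in 15, up to 10. A UMI of an S2 gene was present in 24 members and of an S3 gene in 5, and 15 members led by a single UMI. Distal genes gave no UMI in 44 members and 1 UMI in 17. Just outside were 55 cells with a single S1 UMI, 12 with a tie between S1 and another segment, and 4 with 2 distal UMIs.

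Transcripts outside the rule did not all follow the number of S1 UMIs in the same order. With shared barcodes kept in 1 file, Gatm, the first enzyme of creatine synthesis, summed to 2873 CPM in the 25 members with 2 S1 UMIs, 2893 CPM in the 20 members with 3 or more, and 2554 CPM in the 45 cells with 1. Slc34a1, the main phosphate transporter of the brush border, had 4789, 6139 and 5712 CPM in the same order. Kap, the kidney androgen-regulated protein, had 9721, 5753 and 7344 CPM. Spp1 had 766, 900 and 710 CPM and Maf 1101, 1478 and 1064 CPM. Gatm, Spp1 and Maf were thus lowest with 1 S1 UMI and highest with 3 or more. Slc34a1 and Kap did not follow this order, nor did Gpx3 (31796, 29632 and 23592 CPM). Members with a UMI of Slc5a12 or Slc5a2 (27 cells) had 3154 CPM of Gatm and 6158 CPM of Slc34a1, against 2406 and 4597 CPM in the 18 members that had Spp2 alone. Gpx3 ran the other way, with 26944 CPM in the 27 cells and 36831 CPM in the 18. These sums pool cells of all libraries and were not tested.

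The median member had 886 and 950.5 UMIs in the Akita libraries and 843.5 and 849.5 UMIs in the wild-type libraries. The library medians averaged 918 ± 45.6 UMIs for Akita and 846.5 ± 4.24 UMIs for wild type (SD over 2 libraries each), with an exact permutation p of 0.33, the smallest that 2 libraries against 2 can give. Genes per member had library medians of 571 ± 50.2 in Akita and 476 ± 4.24 in wild type, and mitochondrially encoded UMIs took 18.9% ± 2.82 and 23.3% ± 0.513. Both also gave an exact permutation p of 0.33, and the groups did not overlap in any of these measures in the files as deposited. With shared barcodes kept in 1 file, the median UMIs were 886 and 915 in Akita and 1020 and 849.5 in wild type, so the groups overlapped and the difference turned to −34.3. With shared barcodes left out, the groups overlapped in all 3 measures. The files held between 1016719 and 1303453 UMIs each, and the summed members between 10513 and 25771 UMIs.

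The proximal side of the label was checked on S1 markers outside the rule, and both were found in most members. Gatm had a UMI in 86.7% of the 45 members and Slc34a1 in 93.3%. Cells with more distal than proximal rule genes (at least 2 distal UMIs, 404 cells) should lack both, and gave 21.5% for Gatm and 42.8% for Slc34a1 at a median of 877.5 UMIs, against 902 in members. After thinning every cell to 500 UMIs, which left out 4 of the 45 members and 80 of the 404 distal cells, Gatm was found in 65.9% of members (exact 95% interval 49.4% to 79.9%) and 11.4% of distal cells (8.17% to 15.4%). Gatm was also found in 40.5% of S2-like and 18.2% of S3-like cells. Slc34a1 was found in 90.2% of members and 29.6% of distal cells, and also in 78.6% of S2-like and 62.3% of S3-like cells. Such intervals cover counting error only. The rule itself separates members from distal cells, so that contrast bears on proximal against distal and cannot tell S1 from S2 or S3.

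Transcripts of other cell types were rare in members. All markers of podocytes, endothelium, mesenchyme and lymphocytes were at 0 among 51998 UMIs, which allows up to 57.7 CPM. For each of these types, S2-like, S3-like and distal cells averaged at most 9.29 CPM, so a count of 0 does not set members apart. Markers of the thick ascending limb outside the rule averaged 156 CPM over libraries (6 UMIs), 94.8 CPM in S2-like, 86.6 CPM in S3-like and 2609 CPM in distal cells. Cldn16 was at 0 in members and averaged only 4.66 CPM in distal cells. Connecting tubule markers averaged 390 CPM in members, 343 CPM in S2-like, 660 CPM in S3-like and 7848 CPM in distal cells, with Trpv5 at 0 in members. The rule limits distal UMIs in members, so the contrast with distal cells is partly built in. Of 6 macrophage or dendritic markers, 1 had a UMI, and red blood cell genes gave 149 CPM in members, 111 CPM in S2-like and 131 CPM in S3-like cells. In the files as deposited, markers of all other types summed to 554 ± 24.4 CPM in Akita members and 797 ± 85.1 CPM in wild-type members (SD, n = 2 each, exact permutation p 0.33). The difference of −244 CPM was −48.4 CPM with shared barcodes kept in 1 file and turned to 108 CPM with them left out.

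S1-like cells were then set against S2-like cells (208) and S3-like cells (93), which were defined in the same form from their own genes. UMIs were summed by library and segment and tested in 1 edgeR quasi-likelihood fit with library as a block, over 660 genes, without the 15 rule genes. The segments differ by construction in the rule genes. The samples behind each comparison are 4 libraries, and both comparisons use the same S1-like sums. The S3-like sums were thin in places, with 6 cells in Akita replicate 1 and 2 in Wild-type replicate 1.

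Against S2-like cells, S1-like cells had more Gatm, Spp1 and Maf and less of a group of enzymes and transporters led by Kap, Cyp2e1 and Napsa. In all, 20 of 660 genes (3.03%) passed an adjusted p of 0.05, 6 higher (0.909%) and 14 lower (2.12%). With the size factors of DESeq2 in the same fit, 11 were higher and 12 lower. The count varied with the library left out. It was 29 without Wild-type replicate 1 and 15 without Akita replicate 1. Without Akita replicate 2 no gene passed (smallest adjusted p 0.0615, 70 genes at an unadjusted p under 0.05), and without Wild-type replicate 2 it was 5. With shared barcodes left out, 9 of 205 tested genes passed.

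Against S3-like cells, 55 of the 660 genes (8.33%) passed, 29 higher (4.39%) and 26 lower (3.94%). Gatm, Gpx3, Slc34a1, Slc3a2, Slc6a19 and G6pc were higher in S1-like cells. Nudt19, Tmigd1, Acy3, Acadm and Csad were among those lower. Without Akita replicate 2 the count was 20, without Wild-type replicate 2 it was 18, and with shared barcodes left out it was 19 of 205.

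Gatm (chromosome 2, 122594467 to 122611303, minus strand, GRCm38) had 3995 and 3217 CPM in S1-like cells of the Akita libraries and 2062 and 3197 CPM in those of the wild-type libraries. S2-like cells had 1577, 1424, 1633 and 970 CPM in the same libraries. The S1-like value was the higher in each library, by 1.17 ± 0.25 on the log2 scale (SE, edgeR adjusted p 0.000594). S3-like cells had 643, 309, 2173 and 230 CPM, where the 2173 came from the 2 cells of Wild-type replicate 1 and exceeded that library's S1-like value. The difference from S3-like cells was 2.85 ± 0.35 (edgeR adjusted p 5.60e-13). In Akita replicate 1 and Wild-type replicate 2, whose barcodes were in no other file, the difference from S2-like cells was 1.69. Cells with a Gatm UMI after thinning made up 65.9% of S1-like, 40.5% of S2-like, 18.2% of S3-like and 11.4% of distal cells. Without Akita replicate 1, Akita replicate 2 or Wild-type replicate 2 the adjusted p against S2-like cells was 0.0957, 0.118 and 0.156.

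**Figure D2:**
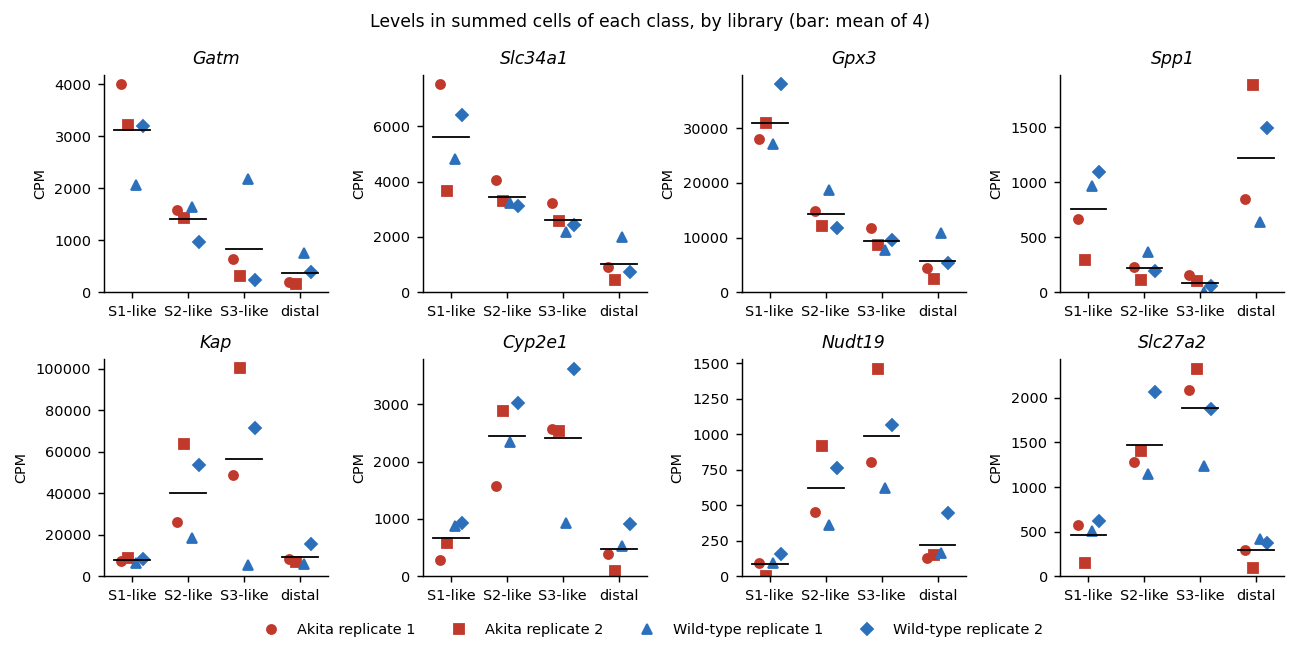
CPM of 8 genes in the summed S1-like, S2-like, S3-like and distal cells of each library (points; red Akita, blue wild type), with the mean of 4 libraries as a bar and shared barcodes kept in 1 file. Gatm, Slc34a1 and Gpx3 average highest in S1-like cells, whereas Kap averages 7688 CPM there, below the 9311 CPM of distal cells.

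Slc34a1, already used above to check the proximal side of the label, had 7515 and 3656 CPM in the Akita and 4812 and 6393 CPM in the wild-type S1-like sums. In S2-like cells it had 4054, 3300, 3241 and 3101 CPM, each below its library's S1-like value. The difference was 0.76 ± 0.29 on the log2 scale and did not pass (edgeR adjusted p 0.125). Against S3-like cells, which had 3216, 2579, 2173 and 2416 CPM, it was 1.16 ± 0.32 and passed (edgeR adjusted p 0.00681).

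Gpx3 encodes the glutathione peroxidase that the proximal tubule secretes into plasma, and it was among the most abundant transcripts of the members. Its S1-like levels were 28061 and 31003 CPM in Akita and 27084 and 38048 CPM in wild type, above every S2-like value. S2-like cells had 14911, 12024, 18618 and 11738 CPM, and the ranges did not overlap. The difference of 1.15 ± 0.36 fell just short (edgeR adjusted p 0.0501). Against S3-like cells, at 11740, 8664, 7759 and 9492 CPM, it was 1.83 ± 0.38 (edgeR adjusted p 8.60e-05).

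Spp1 encodes osteopontin, a secreted glycoprotein. Its S1-like levels of 666 and 292 CPM (Akita) and 962 and 1092 CPM (wild type) rested on 7, 2, 21 and 14 UMIs. S2-like cells had 225, 107, 370 and 191 CPM, lower in each library, with a difference of 1.83 ± 0.41 (edgeR adjusted p 0.00115). S3-like cells differed by 2.66 ± 0.59 (edgeR adjusted p 0.000278). S1-like cells had less Spp1 than distal cells, at 753 CPM against 1216 CPM on average. After thinning, a UMI was found in 31.7% of S1-like, 8.67% of S2-like, 3.90% of S3-like and 36.4% of distal cells. Whether distal RNA contributed to the S1-like level was not tested.

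Maf, a transcription factor of the proximal tubule, averaged 1418 ± 422 CPM in S1-like, 754 ± 224 CPM in S2-like and 713 ± 766 CPM in S3-like cells (SD, n = 4 libraries). It passed against S2-like cells (0.93 ± 0.28, edgeR adjusted p 0.0375) and S3-like cells (1.69 ± 0.37, edgeR adjusted p 0.000278). Of 16 other settings, 4 kept the first of these calls. Hnf4a, which sets the proximal identity, averaged 215 ± 199 CPM in S1-like and 312 ± 114 CPM in S2-like cells and did not pass (edgeR adjusted p 0.794). Nr1h4, a bile acid receptor and the last tested gene of the transcription factor list, did not pass either.

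Amino acid transport was represented by only 2 tested genes of the 16 list members present in the files. Slc3a2, the heavy chain of several basolateral amino acid exchangers, had 856 and 146 CPM in Akita and 412 and 624 CPM in wild-type S1-like cells. S2-like cells had 45.0, 154, 89.3 and 143 CPM, so Akita replicate 2 ran against the other 3 libraries. The difference of 2.25 ± 0.61 passed (edgeR adjusted p 0.0125), as did that of 3.30 ± 0.85 from S3-like cells (edgeR adjusted p 0.00338). Slc6a19, the brush border transporter of neutral amino acids, averaged 463 ± 293 CPM in S1-like, 343 ± 176 CPM in S2-like and 50.5 ± 82.6 CPM in S3-like cells. It passed only against S3-like cells (2.24 ± 0.69, edgeR adjusted p 0.0219; against S2-like cells 0.26 ± 0.47, adjusted p 0.823).

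For sodium, bicarbonate and water transport, 11 genes were tested, none passed against S2-like cells and 2 were higher than in S3-like cells, as were 4.39% of all 660 genes. Their median log2 differences were 0.37 and 0.73, beside −0.003 and 0.015 for all 660 genes. The basolateral bicarbonate transporter Slc4a4 averaged 2489 ± 882 CPM in S1-like, 1641 ± 98.5 CPM in S2-like and 1324 ± 531 CPM in S3-like cells, and differed from S3-like cells by 0.93 ± 0.31 (edgeR adjusted p 0.0334). Carbonic anhydrase Car12 averaged 406 ± 66.9, 233 ± 85.9 and 36.5 ± 44.0 CPM, with a difference from S3-like cells of 2.60 ± 0.77 (edgeR adjusted p 0.0158).

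Glucose handling could hardly be measured. Of 8 sugar transporters in the list, 2 belonged to the rule and none of the rest had enough UMIs for a test. Slc5a1 (SGLT1), known for the late proximal tubule, had no UMI in S1-like cells, which allows up to 57.7 CPM, against an average of 59.0 CPM in S2-like and 33.0 CPM in S3-like cells. A difference was not detectable at this depth. Slc2a2 (GLUT2), the basolateral glucose exit of the early tubule, had 11 UMIs in S1-like cells and averaged 179 ± 133 CPM, against 215 ± 104 CPM in S2-like and 18.1 ± 27.2 CPM in S3-like cells. Of 6 tested genes of gluconeogenesis, G6pc, the last enzyme of glucose release, passed against S3-like cells (541 ± 173 against 58.2 ± 67.3 CPM, log2 difference 2.11 ± 0.63, edgeR adjusted p 0.0167) and none against S2-like cells. Over all 660 genes, 4.39% were higher than in S3-like cells. Pck1, the enzyme that commits carbon to glucose synthesis, averaged 2039 ± 970, 1625 ± 739 and 1516 ± 594 CPM in S1-like, S2-like and S3-like cells and did not pass.

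Several further genes separated S1-like from S3-like cells on few UMIs. Dpep1, a brush border dipeptidase, had 19 UMIs in S1-like and 1 in S3-like cells, a ratio of 41.0 with a counting interval of 6.51 to 1702. Prodh2, an enzyme of hydroxyproline breakdown, had 18 UMIs in S1-like cells and none in S3-like cells, at least 12.9-fold higher when 3 counts over the group are allowed in S3-like cells. Nox4, the NADPH oxidase abundant in kidney, averaged 476 ± 106 CPM in S1-like, 128 ± 40.9 CPM in S2-like and 39.8 ± 54.3 CPM in S3-like cells, 2.65 ± 0.84 above S3-like cells on the log2 scale (edgeR adjusted p 0.0260). Against S2-like cells none of these 3 passed, with edgeR adjusted p of 0.119 for Dpep1, 0.125 for Prodh2 and 0.0516 for Nox4. Cgnl1, which encodes a junction protein, was higher by 2.42 ± 0.80 and the carboxylesterase Ces1e by 2.40 ± 0.69 against S3-like cells. Ces1e belongs to a cluster of near-identical genes, so its count is uncertain.

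**Figure D3:**
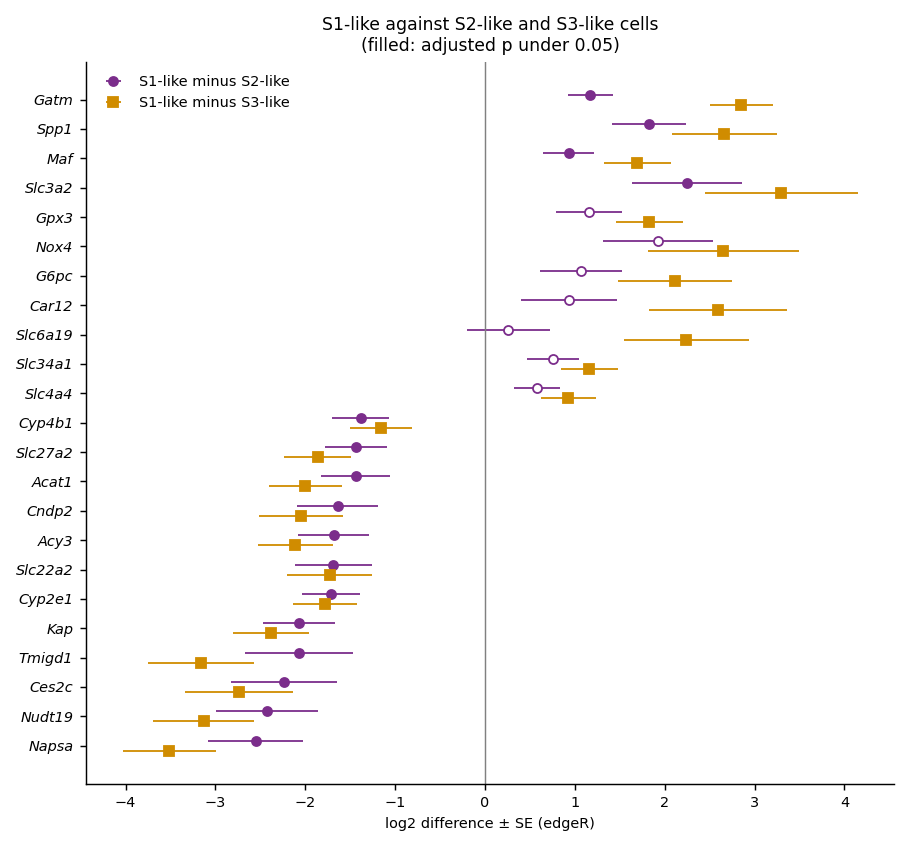
Log2 differences with SE from the edgeR fit for S1-like minus S2-like cells (circles) and S1-like minus S3-like cells (squares); filled symbols passed an adjusted p of 0.05. Both comparisons use the same S1-like sums. Gatm lies at 1.17 and 2.85, and Napsa at −2.55 and −3.51.

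Among the genes lower in S1-like cells were transcripts that respond to androgens or differ between the sexes in mouse kidney. The list of such transcripts was drawn up with earlier results of these data known. In both comparisons, genes outside the list, such as Napsa and Mpv17l, had larger differences than any of its members. Of 6 tested members of that list, Kap, Cyp2e1, Cyp4b1 and Nudt19 were lower against both S2-like and S3-like cells, and Odc1 and Akr1c21 did not pass. Over all 660 genes, 2.12% were lower than in S2-like and 3.94% lower than in S3-like cells. The median log2 differences of the list were −1.62 and −1.85, beside −0.003 and 0.015 for all tested genes.

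Kap (chromosome 6, 133849851 to 133853762, minus strand) had 7419 and 8774.5 CPM in Akita and 6370 and 8186.5 CPM in wild-type S1-like cells. S2-like cells had 25948 and 63681 CPM in Akita and 18337 and 53600 CPM in wild type, and distal cells had 8436, 6993, 6137 and 15680 CPM. The S1-like level was thus lower than the S2-like level in all 4 libraries and, on average, below the distal level, although it exceeded the distal level in Akita replicate 2 and Wild-type replicate 1. The part of free RNA in the S1-like level was not tested. The difference from S2-like cells was −2.07 ± 0.40 (edgeR adjusted p 0.000104) and that from S3-like cells −2.38 ± 0.43 (edgeR adjusted p 6.26e-06). Wild-type replicate 1 was the exception for S3, where its 2 S3-like cells had 5276 CPM. The spread of Kap among S1-like sums (± 1039 CPM) was below that among S2-like sums (± 21694 CPM).

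Cyp2e1, a cytochrome P450 that oxidizes ethanol and small toxins, had 285 and 585 CPM in Akita and 871 and 936 CPM in wild-type S1-like cells. S2-like cells had 1577, 2884, 2348 and 3022 CPM, with no overlap. The differences were −1.72 ± 0.32 from S2-like (edgeR adjusted p 8.79e-05) and −1.78 ± 0.35 from S3-like cells (edgeR adjusted p 4.91e-05). Against S2-like cells it kept its call in 15 of 16 other settings, as Kap did. Cyp4b1, another P450, differed by −1.38 ± 0.32 and −1.16 ± 0.35. Nudt19, which hydrolyses coenzyme A in peroxisomes, had 5 UMIs in S1-like cells, none of them in Akita replicate 2, and averaged 85.7 CPM there, against 621 CPM in S2-like, 987 CPM in S3-like and 221 CPM in distal cells. Its differences were −2.42 ± 0.57 and −3.13 ± 0.57. The S1-like average of Nudt19 was thus below that of distal cells.

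Further genes were lower in S1-like cells. Napsa, a lysosomal aspartic protease, had 6 UMIs in S1-like cells, all in Wild-type replicate 1 (275 CPM). S2-like cells had 698, 866, 715 and 700 CPM, above the S1-like value in each library. Its differences were −2.55 ± 0.53 from S2-like and −3.51 ± 0.52 from S3-like cells (edgeR adjusted p 0.000331 and 7.88e-09). Wild-type replicate 1 ran against the second of these, with Napsa at 0 CPM in its few S3-like cells. Acy3, which removes acetyl groups from conjugated amino acids, differed by −1.68 ± 0.40 and −2.11 ± 0.42, and Cndp2, a cytosolic dipeptidase, by −1.64 ± 0.45 and −2.05 ± 0.47. Slc22a2, the basolateral organic cation transporter OCT2, averaged 254 ± 127 CPM in S1-like and 857 ± 262 CPM in S2-like cells, a difference of −1.69 ± 0.43 (edgeR adjusted p 0.00616). Tmigd1, an adhesion protein of the brush border, had 5 UMIs in S1-like cells, all in Wild-type replicate 1, and differed by −2.07 ± 0.60 and −3.16 ± 0.59. Ces2c, one of a family of similar carboxylesterases and therefore uncertain, differed by −2.24 ± 0.59 and −2.74 ± 0.60. Mpv17l had 1 UMI in S1-like and 73 in S2-like cells, a ratio of 0.0711 (0.00178 to 0.409). The remaining calls against S2-like cells were Ly6a (−1.55 ± 0.47) among the lower genes and Atp5e (1.07 ± 0.31) and Fut9 (0.98 ± 0.29) among the higher genes, the last 2 in 3 of 4 libraries.

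Slc27a2, which activates very long fatty acids, averaged 461 ± 216 CPM in S1-like, 1475 ± 408 CPM in S2-like and 1882 ± 467 CPM in S3-like cells, with differences of −1.44 ± 0.35 and −1.86 ± 0.37. Acat1, the mitochondrial acetoacetyl-CoA thiolase, differed by −1.44 ± 0.38 from S2-like cells and passed against S3-like cells as well (edgeR adjusted p 6.92e-05). Of 9 tested genes in the fatty acid oxidation list, none passed against S2-like cells and 2 were lower than in S3-like cells. These were the acyl-CoA dehydrogenases Acadm (−1.70 ± 0.40, edgeR adjusted p 0.000825) and Acadl (−1.46 ± 0.45, edgeR adjusted p 0.0226). Over all 660 genes, 3.94% were lower than in S3-like cells. The list medians were −0.26 and −0.29, beside −0.003 and 0.015 for all 660 genes. Csad, the decarboxylase of taurine synthesis, had 2 UMIs in S1-like and 49 in S3-like cells, a ratio of 0.0880 (0.0104 to 0.335). Thnsl2, a threonine synthase-like protein, differed from S3-like cells by −2.29 ± 0.73.

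Lists without a call in either segment comparison were polyol and fructose metabolism (4 tested), megalin-cubilin endocytosis (3), immediate early and stress genes (2) and cholesterol synthesis (1). Lrp2, which encodes the endocytic receptor megalin, averaged 1619 ± 273 CPM in S1-like, 2107 ± 530 CPM in S2-like and 2032 ± 934 CPM in S3-like cells. Of 10 tested genes in the mitochondrially encoded list, the ribosomal RNA mt-Rnr1 was higher than in S3-like cells (1.23 ± 0.33, edgeR adjusted p 0.00633) and none passed against S2-like cells. Outside that list, the mitochondrially encoded mt-Tq was also higher than in S3-like cells (0.95 ± 0.30, edgeR adjusted p 0.0260). Of 11 antioxidant genes, Gpx3 was the single call. Phosphate transport had 3 tested genes, and Slc17a1 and Slc17a3 lay below S2-like cells without passing (−1.73 ± 0.58 and −0.80 ± 0.36, edgeR adjusted p 0.0712 and 0.233), opposite to Slc34a1. Of 3 tested brush border peptidases, Dpep1 was the call, and the lists of injury and of arginine and creatine metabolism each had 1 call, Spp1 and Gatm. Beside these list counts, 3.03% of all 660 genes passed against S2-like cells and 8.33% against S3-like cells.

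The study's own comparison was Akita against wild type, made on the S1-like sums of the files as deposited. No gene of 208 tested passed (0%), with a smallest adjusted p of 0.993, and 1 gene had an unadjusted p under 0.05. DESeq2 also called none, with 1 unadjusted. The median SE was 0.49 on the log2 scale. The Akita and wild-type libraries lay apart without overlap for 39 of the 208 genes (18.8%), 22 higher in Akita (10.6%) and 17 lower (8.17%). Full separation of 2 libraries from 2 corresponds to an exact permutation p of 0.33, so these shares were not read as a difference. The 10 members found in both files entered both groups. When a shared barcode was counted in 1 file only, 6 of 120 genes had an unadjusted p under 0.05, and with shared barcodes left out 9 of 75, again with no call.

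Values of the genes with the smallest p are given as a description, since none passed. Pck1 had 3234 and 2467 CPM in Akita, against 1824 and 858 CPM in wild type, 1.08 ± 0.50 on the log2 scale. The single gene with an unadjusted p under 0.05 was Ndufs6, a subunit of respiratory complex I, at 1807 and 965 CPM in Akita, against 504 and 702 CPM in wild type (1.23 ± 0.54). Malat1, a nuclear long non-coding RNA, had 36051 and 21129 CPM in Akita, against 18043.5 and 9980 CPM in wild type. Separate groups were part of the choice, so their separation is no finding. Ldha, lactate dehydrogenase A, differed by 1.03 ± 0.56 and Slc25a4, the mitochondrial ADP/ATP carrier, by 0.71 ± 0.45.

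Lower in Akita without passing were Eif3a, a translation factor (380 and 536 CPM, against 892 and 1014 CPM in wild type), and Ndufb9, also of complex I (95.1 and 912 CPM, against 1048 and 1325 CPM). The lowest Ndufb9 value was 1 UMI. The mitochondrially encoded mt-Nd3 differed by −0.60 ± 0.42, Pdzk1ip1, a membrane protein of the proximal tubule, by −0.46 ± 0.41, and Ftl1-ps1 by −0.76 ± 0.52. Ftl1-ps1 is a pseudogene of ferritin light chain, so its reads may be split with the parent gene. The edgeR adjusted p was 0.993 for each of these 10 genes.

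**Figure D4:**
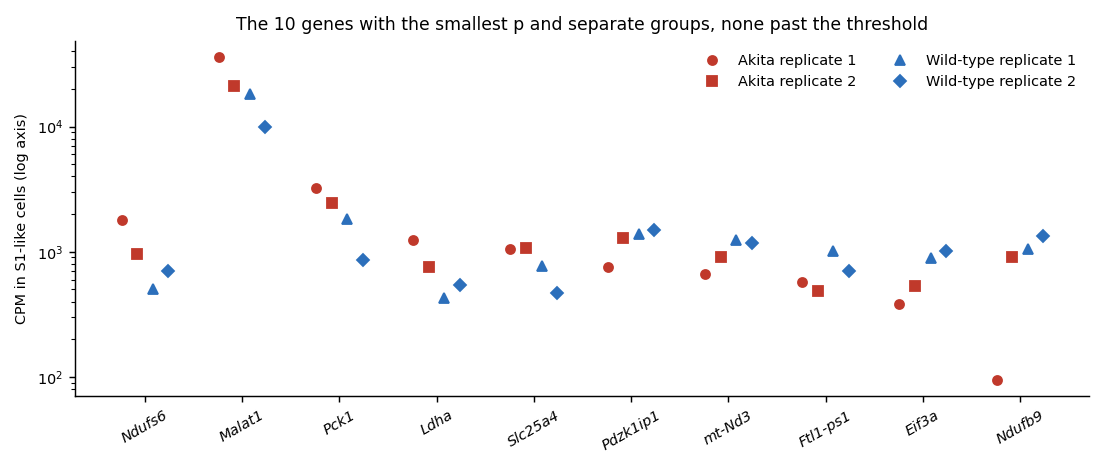
CPM (log axis) of 10 genes in the S1-like cells of each library as deposited, red for Akita and blue for wild type. The genes were chosen for small p and separate groups, and none passed an adjusted p of 0.05; Ndufs6 has the smallest p.

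Genes that passed between S1-like cells and S2-like or S3-like cells did not pass between genotypes. Gatm had 3995 and 2038 CPM in Akita and 2095 and 3197 CPM in wild type (log2 difference 0.25 ± 0.55). Slc34a1 had 7515 and 2735 CPM in Akita, against 4773 and 6393 CPM in wild type (−0.03 ± 0.61). Kap had 7419 and 7615 CPM in Akita, against 9972 and 8186.5 CPM in wild type (−0.24 ± 0.47). Groups overlapped for the first pair of these and not for Kap. No list had a called gene, and 4 tested genes of gluconeogenesis had a median of 0.12, against −0.04 for all genes tested.

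A genotype difference of S1-like cells was also set against that of S2-like and S3-like cells in 1 fit, on the files as deposited. Shared barcodes thus entered both groups in all 3 classes. Of 111 S2-like cells in each file, 15 in Akita replicate 2 and 12 in Wild-type replicate 1 had an unshared barcode. For S3-like cells it was 16 of 56 and 1 of 39. None of 905 genes passed (0%), 12 had an unadjusted p under 0.05, and DESeq2 called none, with 7 unadjusted. With shared barcodes kept in 1 file, 22 of 660 genes had an unadjusted p under 0.05, and with them left out 5 of 205, again with no call. Named without passing were Hdlbp (3.66 ± 1.58, on 7 and 3 UMIs in the Akita members and 0 and 1 in the wild-type members), Malat1 (1.13 ± 0.48) and Ldha (1.25 ± 0.57) in 1 direction, and Zbtb20 (−1.59 ± 0.68), Hspe1 (−1.30 ± 0.56) and Golga4 (−1.29 ± 0.61) in the other. Their edgeR adjusted p was 0.999. Without Akita replicate 2, 4 of 1259 genes passed: Atp5e (5.50 ± 1.25), Gm23935 (12.9 ± 3.10), Malat1 (1.84 ± 0.40) and Dnase1 (−3.24 ± 0.67). These 4 were named after their values were seen, and they rest on a single Akita library. Gm23935 is a predicted gene and its count is uncertain.

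S1-like cells made up 2.89% and 3.00% of retained cells in the Akita libraries (exact 95% intervals 1.33% to 5.42% and 1.79% to 4.70%). In the wild-type libraries they made up 3.90% and 2.72% (2.46% to 5.85% and 1.41% to 4.70%). The means were 2.95% ± 0.0750 in Akita and 3.31% ± 0.834 in wild type (SD over 2 libraries each), a difference of −0.364 percentage points with an exact permutation p of 1.00. The intervals of all 4 libraries overlapped. The handling of shared barcodes moved the share of Akita replicate 2 to 1.62% and that of Wild-type replicate 1 to 5.52% when each was kept in 1 file, and to 1.23% and 6.36% when they were left out. The difference was then −1.86 and −2.48 points, with an exact permutation p of 0.667 in both cases. As a share of the 3 proximal classes alone, S1-like cells were 18.4% and 9.73% in Akita, against 12.8% and 12.5% in wild type. Fewer S1 cells in the tissue, fewer recovered and fewer S1 transcripts per cell cannot be told apart in such shares.

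**Figure D5:**
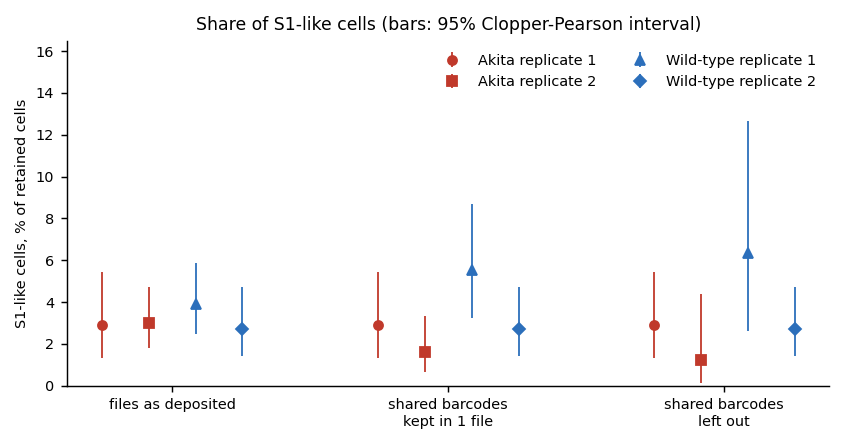
S1-like cells as a percentage of retained cells in each library (points, red Akita and blue wild type) with exact 95% binomial intervals, for 3 ways of treating the barcodes present in 2 files. Akita replicate 1 and Wild-type replicate 2 stay at 2.89% and 2.72%, whereas the other pair moves apart, to 1.23% and 6.36%.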

How the data were processed

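The deposited values are whole UMI counts for each pair of gene and barcode, taken as they are. Tools listed in the submitters' processing notes are STAR 2.5.2b, featureCounts 1.6.0 and UMI-tools 0.5.3, and the build is GRCm38. Whether counting used strand is not given in the sources used here. Symbols and coordinates (1-based) came from a GENCODE annotation of GRCm38.

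Retained barcodes had at least 200 genes, at most 50% mitochondrial UMIs, no undetermined base and no base 11 or more times. Members and gene lists were chosen with earlier results of these data known. Doublets were not called. Counts were summed per library and class (cells are not replicates), with CPM relative to all UMIs of a sum. Sums were tested with edgeR 4.0.16 in R 4.3.3 (filterByExpr, TMM factors, quasi-likelihood, two-sided, Benjamini-Hochberg over all genes tested, threshold 0.05), and DESeq2 1.42.0 was run beside it. SE values are the log2 difference over the root of the F statistic. Scripts were tested on simulated data.

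Segment genes were picked for naming if they passed and had at least 50 CPM in the higher segment and the same direction in 4 libraries. Up to 10 per direction were taken by size. Other differences given did not have to meet this. Against S3-like cells, those of Gatm, Maf, Napsa, Kap, Cyp4b1, Ces2c and mt-Tq had 3 of 4 libraries in their direction. For genotype, where none passed, the 5 with smallest p and separate groups per direction are named. Up to 4 abundant members of each list were eligible, and Gatm and Slc34a1 are always given. Labels call each library a replicate, 1 mouse each as far as they say. Replicate numbers were not used as pairs in the main genotype fit, and its p-values measure the spread between these libraries only. In the fits with library as a block, p-values measure the spread of differences within these libraries. Some list members are not reported here.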

Additional observations from a re-analysis of the deposited data

How the results depend on the processing

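Against S2-like cells, 20 genes passed. The count was 3 with no filter on low counts (where all log2 values shifted by a median of −0.81), 7 with at most 25% mitochondrial UMIs, 8 with no distal UMI, 9 with shared barcodes left out and 94 with them in both files, and 0 to 29 over libraries left out. In the 2 libraries whose barcodes are in no other file, an alternative chosen after seeing the data, it was 38. Against S3-like cells, 55 passed. The count was 4 with no filter (median shift −0.31), 28 with at most 25% mitochondrial UMIs, 27 with at least 3 segment UMIs, 29 with no distal UMI, 35 with barcodes 1 base apart counted once, 19 with shared barcodes left out, 168 with them in both files, and 18 to 70 over libraries left out. The cause was not tested. No value that passed changed direction in these settings.

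Akita against wild type gave 0 calls in every setting run. The replicate block also gave 0 calls. Same-numbered libraries deviated in opposite ways in the files as deposited (correlation −0.46 over 210 genes). The barcodes shared by Akita replicate 2 and Wild-type replicate 1 enter this correlation, so it cannot show how the libraries pair. A crossed block, chosen after seeing the data, gave 0 calls with 8 genes unadjusted, or 6 with shared barcodes kept in 1 file. The difference of genotype effects gave 0 to 4 calls over libraries left out.

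The Akita minus wild-type difference in share was 1.04 points with at least 500 genes per cell, −2.48 with shared barcodes left out, −1.86 with them in 1 file, 1.40 among proximal classes and −0.954 to 0.226 over libraries left out. The difference in median UMIs (71.8) was −140 with 500 genes, 120 with 25% mitochondrial UMIs, 11.8 with no distal UMI, −8.00 and −34.3 with shared barcodes left out or in 1 file, and 39.5 to 104 over libraries left out. That in median genes (95) was −33.8 with 500 genes, 148 with 3 segment UMIs, 32 with no distal UMI, 30.0 with shared barcodes left out and 59.5 to 130.5 over libraries left out. That in mitochondrial percent (−4.35) was −7.33 with 500 genes, −7.63 with 3 segment UMIs, −2.26 with shared barcodes left out and −6.35 to −2.35 over libraries left out. That in other markers (−244 CPM) was −464 with 500 genes, −542 with 3 segment UMIs, 108 and −48.4 with shared barcodes left out or in 1 file, and −304 to −184 over libraries left out. The S1-like sums held at most 25771 UMIs, and no effect of depth was tested.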
